A study of Homo sapiens with 15 samples.

Results

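The comparison set day 3 of endoderm differentiation against day 2, in 6 of the series' 15 libraries: replicates 1, 2 and 4 of day 3 and the same replicate numbers of day 2, chosen by the day and number in the library names. The cells were H9, a single established line of human embryonic stem cells, kept in E8 medium before differentiation in Advanced RPMI 1640. All 6 libraries came from cultures that had received activin A together with CHIR99021, which inhibits GSK3 and so turns on Wnt signalling, during the first day, and activin A alone since, so no agent or medium differed between the days compared. RNA was selected for polyA tails and sequenced in bulk. Whether the replicates of a day were separate cultures is not stated, so the p-values speak only to the spread among these libraries, which may be technical.

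Activin A binds the receptors that Nodal uses in the embryo and activates SMAD2 and SMAD3, which work with EOMES and FOXH1 to start the endoderm programme in cells leaving the primitive streak. Definitive endoderm, the source of gut, liver, lung and pancreas, is marked by SOX17, GATA4, GATA6 and the chemokine receptor CXCR4, and by FOXA2, a forkhead factor that can open closed chromatin for later organ programmes. A dividing cell licenses its replication origins in G1, when ORC, CDC6 and CDT1 load the MCM helicase, and copies its DNA in S phase with genes that the E2F factors switch on.

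Total counts ran from 65534538 to 145857940 in the 6 libraries, and levels are given as CPM, counts scaled to a common library size. A count of 3 corresponded to 0.0206 to 0.0458 CPM. Endoderm markers were present on both days: SOX17 was at 67.2 to 94.3 CPM on day 2 and 103 to 224 CPM on day 3, and GATA4 at 140 to 259 and 221 to 343 CPM. HHEX was at 78.5, 42.5 and 5.70 CPM in replicates 1, 2 and 4 of day 2 and at 6.69, 45.3 and 3.08 CPM on day 3. The means of HHEX, GATA6 and CER1 were lower on day 3, with overlap between the days, and those of FOXA2 and CXCR4 were higher. Markers of other cell types ranged widely in the 6 libraries. The paraxial mesoderm gene MSGN1 was at 0 to 0.0822 CPM, the neural gene SOX1 at 0 to 0.0305 CPM and the endothelial gene PECAM1 at 0 to 0.353 CPM, whereas the mesoderm genes KDR, HAND1 and MESP1 were at 51.8 to 366, 47.1 to 262 and 1.20 to 38.4 CPM and the neural gene PAX6 at 0.767 to 29.3 CPM.
Some libraries stood apart. The 83 ribosomal protein genes took 5.15% and 5.88% of counts in replicate 4 of days 2 and 3 against 2.07% to 2.31% in the other 4 libraries, and POU5F1, the OCT4 gene, was at 215 and 199 CPM there against 22.5 to 43.4 CPM. Replicate 1 of day 3 was low in GATA6, at 143 CPM against 673 and 788 in replicates 2 and 4, and in CER1, a secreted Nodal antagonist of the endoderm, at 478 CPM against 4478 and 1867.

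Day 3 had 115 genes above day 2 (0.661% of 17401 tested) and 50 below it (0.287%) by edgeR's quasi-likelihood test at an adjusted p under 0.05, or 165 genes in all (0.948%). A gene that did not pass is not thereby shown to be at the same level on both days. Libraries with the same number on both days deviated together from their day's mean, most clearly number 4 (correlation 0.619). For number 1 (0.272) the correlation was little above those between numbers 1 and 2 (0.243 and 0.207). With the replicate number as a block 371 genes (2.13%) were higher and 219 (1.26%) lower, 590 together (3.39%). These included all 165 of the unblocked fit in the same direction. The shares of all tested genes called in each fit are the background for the counts of list members below. The 2 days did not overlap in 163 of the 165 genes; over all tested genes the 3 libraries of day 3 were all above day 2 for 1584 (9.1%) and all below for 1523 (8.75%). The smallest called change was 1.09 on the log2 scale and the median called change 2.45 in absolute size, while the median over all tested genes was 0.01. In replicates 1, 2 and 4 the median difference of the higher genes was 2.77, 1.85 and 1.75 and that of the lower genes -1.83, -1.42 and -1.42, on the scale of log2(CPM + 0.5).
The counts rested on few libraries. Without replicate 1 of day 2, replicate 2 of day 2 or replicate 1 of day 3, the higher genes numbered 4, 5 and 16 and the lower ones 1, 2 and 2. Without any 1 of the day 1 libraries, which are not on the days compared but enter the fit and the filter on low counts, they numbered 72 to 75 and 20 to 23. Without replicate 1 of day 4 there were 175 higher genes, and without replicate 4 of day 2 or of day 3 there were 79 and 30 lower genes. Without replicate 4 on both days there were 111 higher and 33 lower genes.

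**Figure D1:**
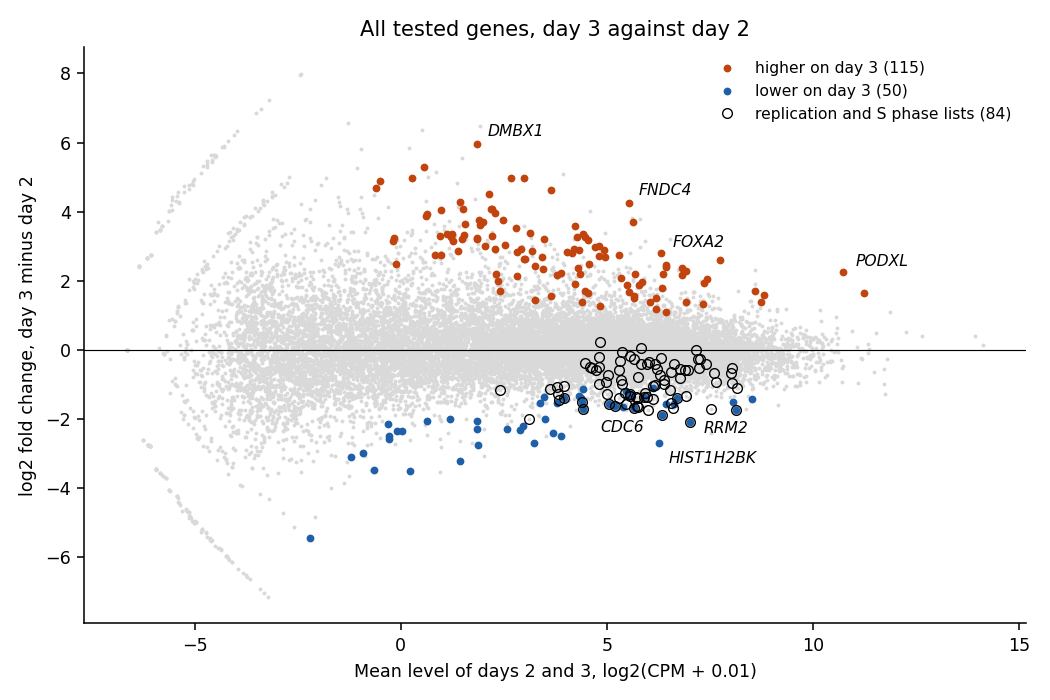
Each point is 1 of 17401 tested genes, with the mean level of days 2 and 3 as log2(CPM + 0.01) on the x axis and the log2 fold change, day 3 minus day 2, on the y axis. Orange and blue points are the 115 genes higher and the 50 genes lower on day 3 by edgeR, and open circles mark the 84 tested genes of the replication and S phase lists, 82 of which lie below 0.

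Among 18 endoderm transcription factors, 2 rose, FOXA2 among them, where 0.661% of all tested genes rose. The other 16 did not pass the test, and the median log2 fold change was 0.07. FOXA2 was at 25.9, 24.3 and 8.82 CPM in replicates 1, 2 and 4 of day 2 and at 252, 116 and 48.2 CPM on day 3. Each replicate number rose, the days did not overlap, and replicate 4 was the lowest on both days (log2 fold change 2.82, SE 0.56, adjusted p = 0.0276 by edgeR, and 0.0018 with the replicate block). The call was lost without replicate 1 of day 3 (log2 fold change 2.06, adjusted p = 0.127) and without replicate 1 or 2 of day 2 (adjusted p = 0.124 and 0.12). In these bulk libraries, more cells with FOXA2 RNA and more of it per cell cannot be told apart.
With the replicate block FOXA3, a FOXA2 relative of the later liver and gut, also passed: it went from 8.18, 8.81 and 16.5 CPM to 54.6, 23.4 and 44.1 CPM (adjusted p = 0.0286). Members called only with the block lie outside the rule by which genes were named and were picked out after their values were seen.

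The other factors of the list gave no call, and several were split between the libraries of day 3. EOMES was at 473, 472 and 548 CPM on day 2 and at 60.3, 452 and 326 CPM on day 3 in replicates 1, 2 and 4 (log2 fold change -0.83, SE 0.57, adjusted p = 0.54). LHX1, a homeobox gene of streak and anterior endoderm, was at 816, 605 and 1143 CPM and then at 68.3, 271 and 510 CPM (log2 fold change -1.60, SE 0.62, adjusted p = 0.243). Both had all day 3 libraries below day 2, with the lowest level in replicate 1.
SOX17 had a log2 fold change of 0.85 (SE 0.45, adjusted p = 0.42), and its day 3 libraries were all above those of day 2. Within replicate 1 the list's median was -0.51, and within replicates 2 and 4 it was 0.57 and 0.20.

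**Figure D2:**
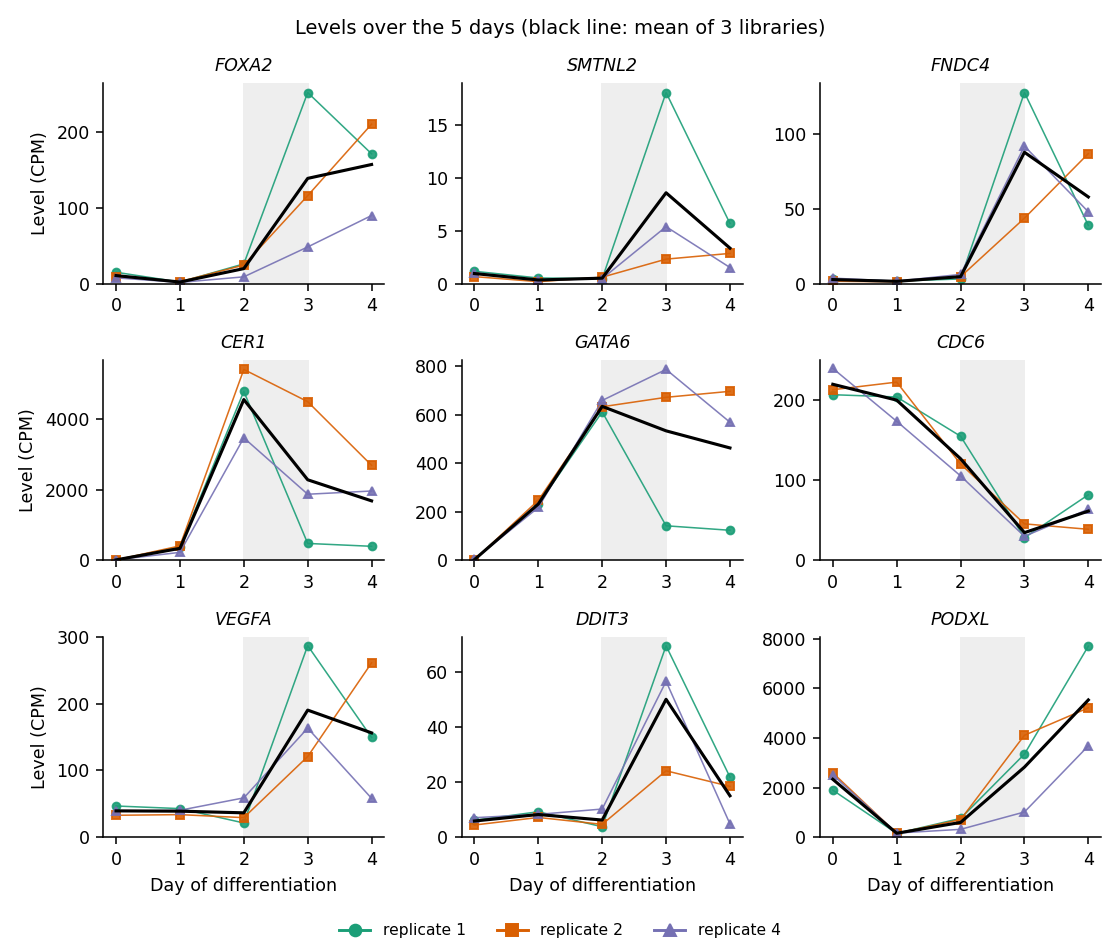
Level in CPM (y axis, from 0) against day of differentiation (x axis) for 9 genes; coloured lines join libraries with the same replicate number, the black line is the mean of 3 libraries, and the grey band marks day 2 to day 3. CER1 and GATA6 in replicate 1 drop to 478 and 143 CPM on day 3, while FOXA2, SMTNL2 and FNDC4 are higher on day 3 than on day 2 in each replicate number.

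Of 24 endoderm surface and secreted genes, GPR37, an orphan G protein-coupled receptor, rose (0.661% of all tested genes did) and 23 did not pass. The median was 0.37. GPR37 was at 26.1, 28.3 and 70.1 CPM on day 2 and at 162, 98.8 and 338 CPM on day 3, a log2 fold change of 2.27 (SE 0.48, adjusted p = 0.0395 by edgeR). With the block, FRZB, a secreted Wnt antagonist, and EPCAM, an epithelial adhesion molecule, were also higher, and NTS, the neurotensin precursor, and SHISA2 were lower. FRZB went from 15.3, 16.5 and 3.56 CPM to 78.5, 153 and 17.5 CPM, and NTS from 427, 267 and 232 CPM to 49.98, 32.4 and 91.2 CPM.
CXCR4 was at 34.4, 32.4 and 11.3 CPM and then at 36.5, 159 and 42.8 CPM (log2 fold change 1.61, SE 0.61, adjusted p = 0.231). Its day 3 libraries were all above day 2, least so in replicate 1. CER1 did not pass (log2 fold change -0.997, SE 0.64, adjusted p = 0.515), and its days overlapped.
None of 23 tested genes of later endoderm and gut tube was called, and with the block S100A14 alone was higher. Their median was 1.13, and APOE, the apolipoprotein, was at 45.5, 56.1 and 275 CPM on day 2 and 103, 159 and 606 CPM on day 3, a log2 fold change of 1.21 (SE 0.80, adjusted p = 0.529).

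FNDC4, a membrane protein with a fibronectin type III domain that is related to FNDC5, rose in every replicate number. It was at 3.07, 4.57 and 6.14 CPM in replicates 1, 2 and 4 of day 2 and at 128, 43.9 and 92.1 CPM on day 3. The lowest day 3 library was above the highest day 2 library (log2 fold change 4.26, SE 0.49, adjusted p = 0.00206 by edgeR). None of the other 6 tested FNDC genes was called, and the family's median was -0.14.

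The largest increases among genes with at least 5 CPM on 1 of the days and no overlap between the days, by which they were chosen, were in genes of many kinds. DMBX1, a homeobox gene known from the developing brain, was at 0.0552, 0.151 and 0.137 CPM on day 2 and at 15.1, 2.46 and 3.81 CPM on day 3, a log2 fold change of 5.97 (SE 0.93, adjusted p = 0.0089). FOXP2, a forkhead factor, was at 0.46, 0.502 and 0.192 CPM and then at 21.8, 13.0 and 1.99 CPM (log2 fold change 4.98, SE 0.83). Both differed widely between the day 3 libraries, with replicate 1 the highest. Without it DMBX1 had a log2 fold change of 4.79 (adjusted p = 0.04) and FOXP2 one of 4.26 with its call lost (adjusted p = 0.0577), and without replicate 1 or 2 of day 2 neither was called.
GJA4, the gap junction protein connexin 37, rose from 0.274 to 0.755 CPM on day 2 to 38.2, 6.07 and 2.14 CPM. PAMR1, a secreted protein with a protease-like domain, rose from 0.534 to 1.53 CPM to 58.2, 8.26 and 4.88 CPM. In both, replicate 1 of day 3 was far above the other libraries of that day, and without it the calls were lost (GJA4 log2 fold change 4.98 with it and 3.06 without, adjusted p = 0.0239 and 0.116; PAMR1 4.63 and 2.76, adjusted p = 0.0287 and 0.131).
The other large increases were ADAMTS18, a secreted metalloprotease (0.219 to 0.577 CPM on day 2, 2.52 to 14.7 CPM on day 3), CCDC129, AGXT2L1, an enzyme that breaks down phosphoethanolamine, SMTNL2, CNNM1 and PDE11A, a cyclic nucleotide phosphodiesterase. Their log2 fold changes ran from 3.76 for PDE11A to 4.51 for ADAMTS18.

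**Figure D3:**
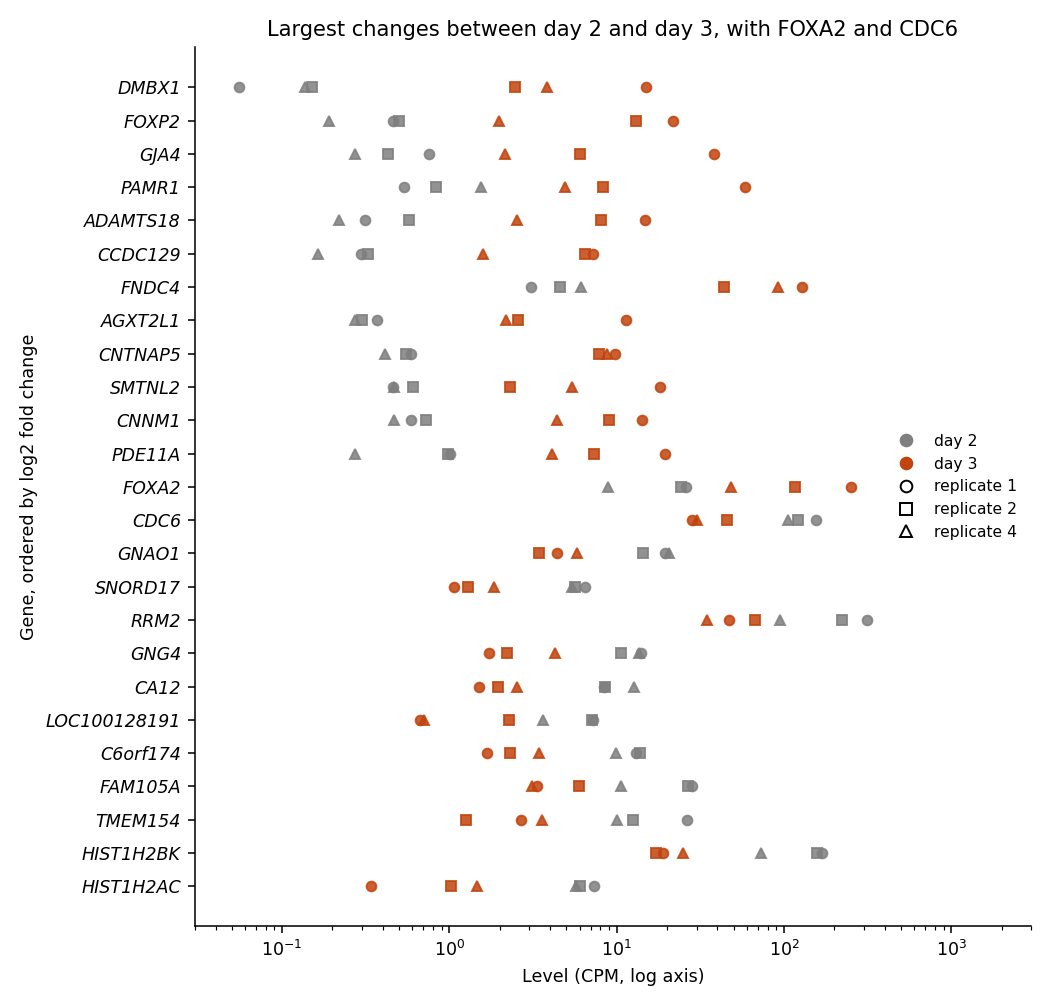
Level in CPM (x axis, log scale) in each library for the 12 largest increases and the 12 largest decreases among called genes of at least 5 CPM whose days did not overlap, with FOXA2 in addition (y axis, ordered by log2 fold change); grey is day 2, orange is day 3, and the shape gives the replicate number. FNDC4 and CNTNAP5 have all 3 orange points close together compared with GJA4 or PAMR1.

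A few calls did not depend on any single library, and without replicate 1 of day 2 they were the only ones left. FNDC4, S100A16, CNTNAP5 and RBM20 were higher and CMKLR1 was lower in each of the 15 fits that left out 1 library of the course; 3 of these 5 were picked out after their values were seen, since CNTNAP5 and FNDC4 were also among the largest increases. S100A16, a calcium-binding EF-hand protein, was at 7.94, 7.98 and 5.67 CPM on day 2 and at 51.1, 65.4 and 43.9 CPM on day 3, a log2 fold change of 2.89 (SE 0.32, adjusted p = 0.00206 by edgeR). CNTNAP5, a neurexin-like cell adhesion protein, was at 0.589, 0.552 and 0.411 CPM and then at 9.71, 7.84 and 8.79 CPM (log2 fold change 4.08, SE 0.50, adjusted p = 0.00215). The spread within each day was small in both genes beside the distance between the days.
RBM20, a splicing factor known from heart muscle, was at 7.62, 12.02 and 10.6 CPM and then at 67.0, 45.1 and 92.2 CPM (log2 fold change 2.75, SE 0.34). CMKLR1, the chemerin receptor, was at 1.93, 1.98 and 2.44 CPM and then at 0.149, 0.27 and 0.146 CPM (log2 fold change -3.50, SE 0.43, adjusted p = 0.00215). On day 1 it had stood at 9.85 CPM, and on day 4 its mean was 0.115 CPM, so day 3 lies between higher and lower means.

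The largest decreases included 2 histone genes. HIST1H2BK, an H2B gene, was at 169, 157 and 72.6 CPM on day 2 and at 19.0, 17.1 and 25.0 CPM on day 3, a log2 fold change of -2.70 (SE 0.42, adjusted p = 0.00882 by edgeR). HIST1H2AC, an H2A gene, was at 7.27, 5.999 and 5.67 CPM and then at 0.34, 1.02 and 1.46 CPM (log2 fold change -2.76, SE 0.52). Histone genes have near-identical copies, so the counting could have shared reads among them. HIST1H2BD and HIST1H3B, picked out after their values were seen, were also lower: HIST1H2BD went from 0.932 to 2.01 CPM on day 2 to 0.245 to 0.39 CPM. How many other histone genes fell or rose was not counted.
The other large decreases were not of a single kind. GNAO1 and GNG4, subunits of heterotrimeric G proteins, went from 19.5, 14.4 and 20.6 CPM to 4.40, 3.45 and 5.78 CPM and from 13.98, 10.6 and 13.6 CPM to 1.73, 2.22 and 4.27 CPM. CA12, a carbonic anhydrase at the cell surface, went from 8.36, 8.51 and 12.7 CPM to 1.49, 1.95 and 2.55 CPM (log2 fold change -2.30, SE 0.37). TMEM154, FAM105A, C6orf174, LOC100128191 and the small nucleolar RNA SNORD17 also fell, with log2 fold changes from -2.70 to -2.05. The remaining 2 of the 12, RRM2 and CDC6, belong to DNA replication.

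Of 26 tested genes that license and fire replication origins, 5 fell (CDC6, MCM2, MCM4, MCM10 and CDC45), 21 did not pass and none rose, where 0.287% of all tested genes fell. With the replicate block 9 fell (1.26% of all tested genes), adding MCM6, GINS1, GINS2 and GINS4, and the median log2 fold change was -0.94. CDC6, the ATPase that loads the MCM helicase, was at 155, 121 and 106 CPM in replicates 1, 2 and 4 of day 2 and at 28.3, 45.7 and 30.0 CPM on day 3. The days did not overlap, and each replicate number fell (log2 fold change -1.87, SE 0.30, adjusted p = 0.0122 by edgeR). Without replicate 1 or 2 of day 2 or replicate 1 of day 3 the log2 fold change was -1.70, -1.93 and -1.75 and the adjusted p 0.0829, 0.0584 and 0.0722.
All 6 subunits of the helicase, MCM2 to MCM7, had negative log2 fold changes, from -1.75 for MCM4 to -0.66 for MCM7. MCM4 was at 547, 447 and 298 CPM and then at 139, 158 and 87.9 CPM (SE 0.38, adjusted p = 0.0435). MCM2 was at 155, 129 and 168 CPM and then at 55.8, 57.2 and 57.0 CPM (log2 fold change -1.41, SE 0.31, adjusted p = 0.0435). In both, the highest day 3 library was well below the lowest of day 2.
CDC45, which joins the helicase when an origin fires, was at 51.1, 61.2 and 37.2 CPM and then at 18.8, 20.3 and 10.8 CPM (log2 fold change -1.58, SE 0.32). CDT1, the partner of CDC6 in loading, did not follow the others: it was at 33.1, 34.1 and 99.4 CPM and then at 49.6, 36.8 and 85.3 CPM (log2 fold change 0.04, SE 0.51, adjusted p = 0.982). GMNN, the inhibitor of CDT1, was at 226, 198 and 94.5 CPM and then at 63.2, 104 and 38.0 CPM, and did not pass (log2 fold change -1.34, SE 0.46, adjusted p = 0.177).

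Some promoters of these genes hold letters that E2F factors are known to recognise. Of the promoters found for genes of the 3 replication and S phase lists, 7 of 23 of those that fell with the block, and 2 of 10 of those that fell without it, had a match to TTTNGCG in the 250 bases before the start, where 4.32% of all promoters had. The other 16 had none. Members not called with the block also had matches in this window, CDT1, RFC1 and E2F1 among them. The lists were written in part from known E2F targets, so these shares describe that choice as well. Of the 23, 4 are printed to show each kind: a match just before the start (CDC6, CDC45), paired matches on both strands (MCM6, called only with the block) and no match in those 250 bases, the most common case there (RRM2). Each is the 250 bases before the gene's start, 5′ to 3′ on the gene's strand, from RefSeq on GRCh38.p14, with capitals on each match to TTTNGCG on either strand.
CDC6, chr17:40287629-40287878, plus strand: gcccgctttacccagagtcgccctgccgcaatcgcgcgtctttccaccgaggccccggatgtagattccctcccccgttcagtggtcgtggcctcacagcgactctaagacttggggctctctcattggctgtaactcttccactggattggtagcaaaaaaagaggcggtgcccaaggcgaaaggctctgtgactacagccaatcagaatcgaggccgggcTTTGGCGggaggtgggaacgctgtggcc
CDC45, chr22:19479670-19479919, plus strand: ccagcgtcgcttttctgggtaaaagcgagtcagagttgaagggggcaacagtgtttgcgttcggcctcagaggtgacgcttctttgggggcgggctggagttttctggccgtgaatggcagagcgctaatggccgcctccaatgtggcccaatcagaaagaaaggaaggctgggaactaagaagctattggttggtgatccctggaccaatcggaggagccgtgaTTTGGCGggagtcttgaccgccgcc
MCM6, chr2:135876444-135876693, minus strand: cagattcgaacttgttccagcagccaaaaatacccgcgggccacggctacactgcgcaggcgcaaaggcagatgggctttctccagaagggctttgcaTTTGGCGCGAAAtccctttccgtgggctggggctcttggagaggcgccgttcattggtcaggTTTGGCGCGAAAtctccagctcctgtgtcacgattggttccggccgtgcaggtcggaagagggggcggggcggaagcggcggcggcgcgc
RRM2, chr2:10122489-10122738, plus strand: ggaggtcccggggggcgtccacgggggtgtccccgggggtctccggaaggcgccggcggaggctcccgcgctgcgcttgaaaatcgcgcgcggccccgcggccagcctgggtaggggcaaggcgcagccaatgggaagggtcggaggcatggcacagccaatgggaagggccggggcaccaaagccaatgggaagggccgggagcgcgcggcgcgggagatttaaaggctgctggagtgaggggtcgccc
The matches start 28 bases before the gene in CDC6 and 25 in CDC45. MCM6 has 4, which overlap in pairs on opposite strands, with first bases 152, 147, 90 and 85 before the gene. A match is a run of letters, not a measured binding site, and no match says only that these letters are absent from this window.
Over windows of 300 bases (250 before to 50 after the start), TTTNGCGC, the 8-base form, was in 629 of 35116 promoters (1.79%) and in 21 of the 71 promoters found for the replication and S phase lists (29.6%). Those lists were written from genes known as E2F targets among others, so this share describes the choice of the lists. Within them the motif was in 3 of 10 promoters of genes that fell, in 8 of 23 of those that fell with the block (34.8%) and in 13 of 48 of those not called with the block (27.1%). Among promoters of the other genes that fell it was in 3 of 25 (12%), and among those of genes that rose in 1 of 77 (1.3%). The 7-base form TTTNGCG, whose matches include those of the 8-base form, was added after the sequences had been seen. It was in 5.14% of all promoters and 39.4% of those of the lists. Over these 300 bases it was in 12 of 23 promoters of genes that fell with the block (52.2%) and in 5 of 10 of those that fell without it. Among members not called with the block it was in 16 of 48 (33.3%).

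Of 30 genes of the replication fork and chromatin assembly, 3 fell and none rose, where 0.287% of all tested genes fell. With the block 9 fell (1.26% of all tested genes), adding PCNA, RFC3, RFC5, POLA1, POLA2 and CLSPN. FEN1, the nuclease that trims Okazaki fragments, was at 84.9, 74.7 and 69.7 CPM and then at 16.9, 32.9 and 20.9 CPM (log2 fold change -1.70, SE 0.32, adjusted p = 0.0223 by edgeR). CHAF1B, a subunit of the CAF-1 histone chaperone, was at 74.0, 63.4 and 64.8 CPM and then at 25.1, 27.8 and 30.0 CPM (log2 fold change -1.29, SE 0.24). ASF1B, which hands histones H3 and H4 to CAF-1, was at 38.7, 26.9 and 27.8 CPM and then at 11.1, 11.6 and 9.88 CPM. In all 3 genes the days did not overlap, and the day 3 libraries of FEN1 were farther apart than those of the others. The list's median was -0.62.
PCNA, the sliding clamp of the fork, was at 382, 300.0 and 166 CPM and then at 82.9, 131 and 44.8 CPM. It was called only with the block (log2 fold change -1.71, SE 0.44, adjusted p = 0.0766, and 0.0165 with the block); replicate 4 was the lowest on both days.

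In the list of nucleotide supply and E2F target genes, RRM2, E2F8, CCNE1 and EXO1 fell and none of the 28 rose, where 0.287% of all tested genes fell. With the block 10 fell (1.26% of all tested genes). RRM2, the small subunit of ribonucleotide reductase, was at 313, 222 and 94.3 CPM and then at 47.0, 67.5 and 34.9 CPM (log2 fold change -2.08, SE 0.41, adjusted p = 0.0242 by edgeR). CCNE1, the cyclin that takes cells from G1 into S phase, was at 36.3, 33.1 and 28.6 CPM and then at 8.93, 12.5 and 8.59 CPM (log2 fold change -1.71, SE 0.32). All 28 members were lower on day 3 in each of the 3 replicate numbers, where 26.4% of all tested genes were. The median was -1.20.
EXO1, a DNA exonuclease of repair, was at 64.0, 54.9 and 47.4 CPM and then at 19.9, 19.9 and 13.7 CPM. E2F8, an atypical E2F that represses, was at 23.2, 19.4 and 25.5 CPM and then at 10.3, 6.79 and 8.76 CPM. The members added by the block included UHRF1, CCNA2, E2F7 and BRCA1.

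**Figure D4:**
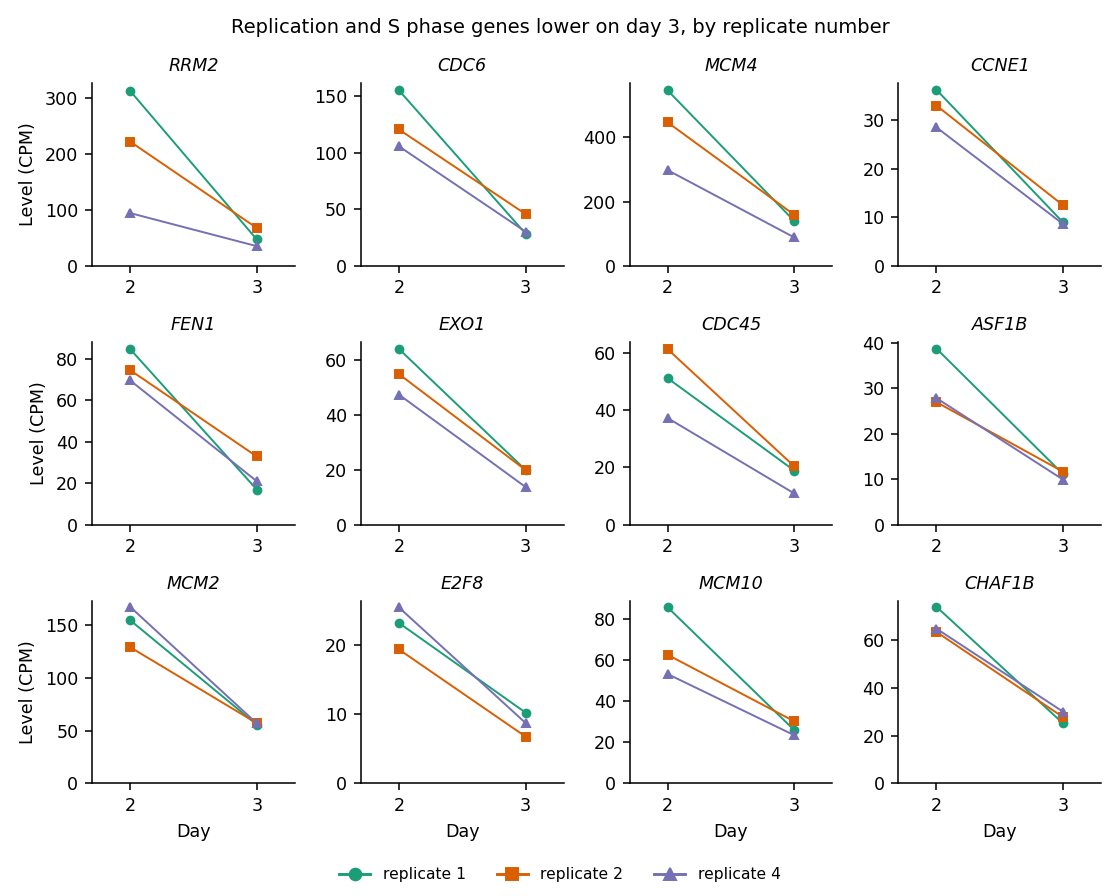
Level in CPM (y axis, from 0) on day 2 and day 3 (x axis) for the 12 replication and S phase genes that were lower on day 3 by edgeR; a line joins the libraries of 1 replicate number. Every line falls, and RRM2 in replicate 4 starts from the lowest level, at 94.3 CPM against 313 and 222.

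Counted as 1 group, the 3 lists held 84 tested genes: 12 fell (14.3%, against 0.287% of all tested genes), 28 fell with the block (33.3%, against 1.26%), and none rose in either fit. In 48 (57.1%, against 8.75% of all tested genes) the 3 day 3 libraries were all below day 2, in none were they all above, and the log2 fold change was negative in 82, or in 81 with library totals or DESeq2's size factors as scaling. The lists were chosen with earlier results of these data known, so these shares may in part describe that choice. The median was -0.99 and stayed between -1.08 and -0.84 in the fits that left out 1 library.
The calls were less steady than the direction. None of the 84 was called without replicate 1 or 2 of day 2 or replicate 1 of day 3, 4 were called without replicate 4 of day 3, 6 or 7 without any 1 library of day 1, 19 without replicate 1 of day 4, and 2 without replicate 4 on both days. With the block, the 28 calls became 2 and 3 without replicates 1 and 2 of day 2, 4 without replicate 1 and 7 without replicate 4 of day 3.
CDC6 averaged 220.2 CPM on day 0, 200.3 on day 1, 127 on day 2, 34.7 on day 3 and 61.6 on day 4. A higher mean on day 4 than on day 3 was seen in 62 of the 84, though none was called between those days. Over all 84 the median log2 fold change from day 3 to day 4 was 0.20. The share of all tested genes with a higher mean on day 4 than on day 3 was not counted. Between days 4 and 1, whose libraries are in the same fit, 30 of the 84 were lower on day 4, where 8.93% of all tested genes were, and none higher.

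Mitosis genes gave no call without the block: none of 30 passed, the median was -0.71, all 30 had negative log2 fold changes and in 17 the days did not overlap (8.75% of all tested genes had all day 3 libraries below day 2). With the block CCNB1, BUB1B, KIF11 and CENPF fell, where 1.26% of all tested genes did. CCNB1, the cyclin of mitotic entry, was at 500.1, 363 and 329 CPM and then at 201, 175 and 176 CPM (log2 fold change -1.11, SE 0.26, adjusted p = 0.0559, and 0.0277 with the block). TOP2A, which untangles chromosomes, was at 951, 1023 and 678 CPM and then at 730, 649 and 569 CPM (log2 fold change -0.45, SE 0.28, adjusted p = 0.498). Its days overlapped.
Of 17 G1 cyclins and CDK inhibitors, CCND2, a D cyclin, rose from 186, 173 and 320 CPM to 696, 477 and 847 CPM (log2 fold change 1.57, SE 0.31, adjusted p = 0.0258). With the block CDKN1C, an inhibitor of CDKs, was higher, and CDK2 was lower. CDKN1C was at 14.5, 18.4 and 22.3 CPM and then at 73.8, 29.9 and 45.0 CPM. None of 22 p53 target genes was called in either fit, and their median was 0.14.

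**Figure D5:**
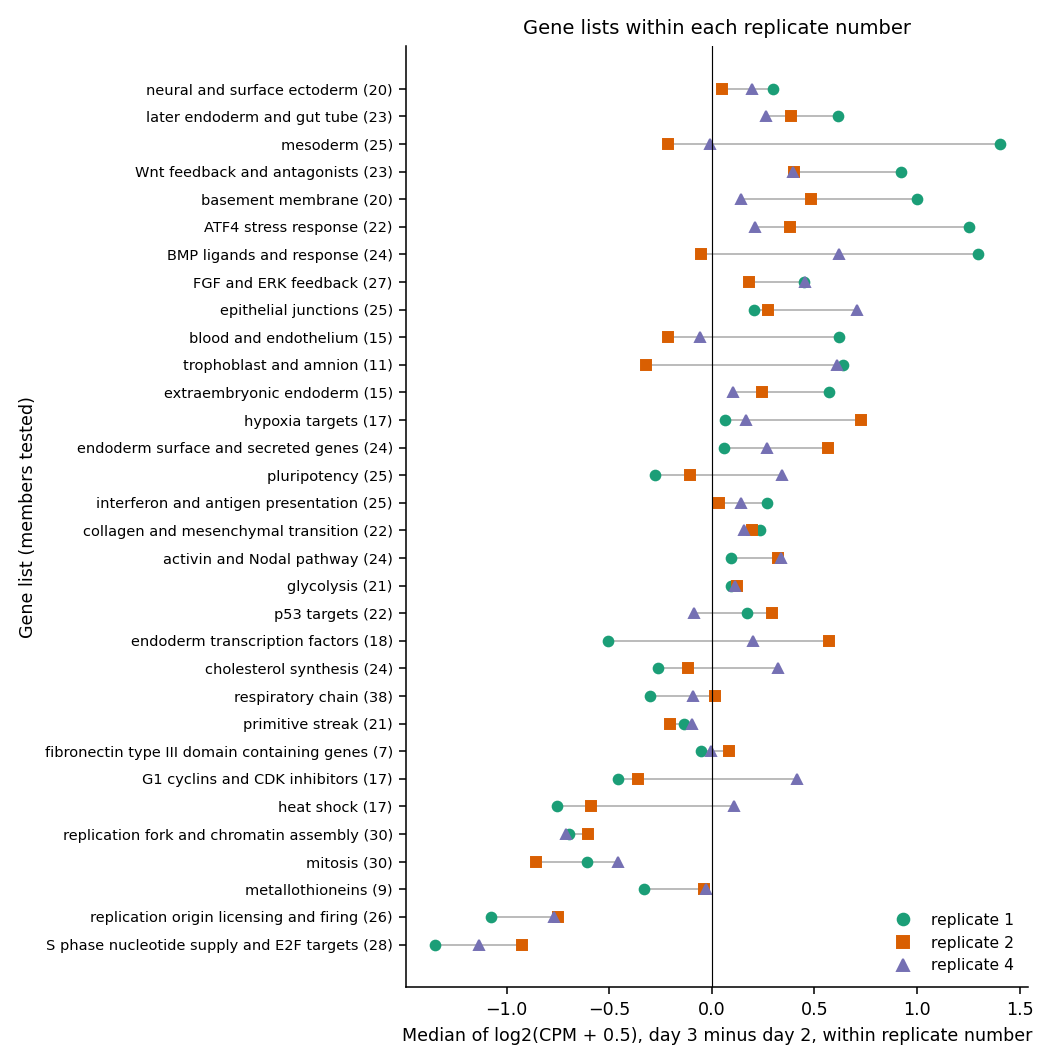
Median difference of day 3 minus day 2 in log2(CPM + 0.5) over the tested members of each of 32 gene lists (x axis), within replicate numbers 1, 2 and 4 (points), with the number of tested members in brackets (y axis, ordered by the median of the fit). The 3 replication lists and mitosis lie below 0 in each replicate number, while mesoderm lies at 1.40 in replicate 1 and at -0.22 and -0.01 in replicates 2 and 4.

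Genes of other germ layers gave no call without the block. None of 25 tested mesoderm genes passed, and ISL1 alone did with the block; their median was 1.06, but it was 1.40 within replicate 1, -0.22 within replicate 2 and -0.01 within replicate 4. HAND1 was at 58.2, 96.6 and 215 CPM on day 2 and at 262, 47.1 and 107 CPM on day 3, a log2 fold change of 0.17 (SE 0.61, adjusted p = 0.936), and MESP1 at 2.03, 2.69 and 38.4 CPM and then at 12.4, 1.20 and 35.9 CPM. In MESP1 replicate 4 was the highest on both days. The mesoderm list summed to 454 to 948 CPM on day 2 and 316 to 1283 CPM on day 3, and its part in the other results was not tested.
None of 21 primitive streak genes passed, and SP5 alone was higher with the block. T, the brachyury gene, was at 4.23, 3.51 and 11.1 CPM and then at 3.80, 0.961 and 4.98 CPM (log2 fold change -0.95, SE 0.53, adjusted p = 0.449); it had averaged 456 CPM on day 1. MIXL1 was at 265, 219 and 513 CPM and then at 15.8, 154 and 309 CPM (log2 fold change -1.06, SE 0.88, adjusted p = 0.637). In both the days overlapped.
Of 20 neural and surface ectoderm genes none passed, and POU3F1 did with the block; of 15 blood and endothelial genes only RUNX1 did, with the block. RUNX1 was at 16.5, 11.7 and 11.02 CPM and then at 85.9, 22.7 and 44.5 CPM (log2 fold change 1.96, SE 0.47, adjusted p = 0.0582, and 0.0255 with the block). No trophoblast or extraembryonic endoderm gene passed, and with the block ISL1, which stands in 2 lists, and THBD, the thrombomodulin gene, were higher.

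Of 25 pluripotency genes, PODXL rose, which codes for the sialomucin podocalyxin that carries the TRA-1-60 epitope and is also made by epithelia. It was at 759, 710 and 317 CPM on day 2 and at 3350.2, 4109.5 and 1017 CPM on day 3, a log2 fold change of 2.25 (SE 0.45, adjusted p = 0.0287 by edgeR). The core factors POU5F1, SOX2 and NANOG did not pass and their days overlapped. NANOG was at 30.0, 40.8 and 36.6 CPM and then at 12.4, 37.9 and 83.7 CPM (log2 fold change 0.32, SE 0.58, adjusted p = 0.859). SOX2 stayed at 3.81 to 11.4 CPM in all 6 libraries.

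Signalling genes rarely passed. None of 24 activin and Nodal genes was called; with the block INHBA, the activin A subunit, and SMAD3 were higher. SMAD3, which carries the activin signal to the nucleus, was at 40.7, 48.2 and 55.4 CPM and then at 132, 100.3 and 117 CPM (log2 fold change 1.28, SE 0.33, adjusted p = 0.0755, and 0.033 with the block). NODAL was at 51.6, 65.2 and 44.7 CPM and then at 2.49, 113 and 47.1 CPM, so that replicate 1 went down, replicate 2 up and replicate 4 stayed close.
LEFTY1, a feedback inhibitor of Nodal, showed the same split, at 82.9, 115 and 41.8 CPM and then at 0.72, 253 and 29.8 CPM. TDGF1, the Nodal co-receptor CRIPTO, was at 274, 339 and 519 CPM and then at 156, 413 and 658 CPM (log2 fold change 0.12, SE 0.44, adjusted p = 0.94).
None of 23 Wnt feedback genes and antagonists passed, and with the block SP5, SP8, FRZB and TNFRSF19 were higher; their median was 0.85. DKK1, a secreted Wnt antagonist, was at 172, 86.4 and 32.1 CPM and then at 551, 218 and 77.0 CPM (log2 fold change 1.54, SE 0.71, adjusted p = 0.34). Outside that list, and picked out after their values were seen, PORCN and WLS, both needed for cells to release Wnt proteins, rose. PORCN was at 7.48, 7.40 and 7.02 CPM and then at 41.3, 33.9 and 24.5 CPM (log2 fold change 2.19, SE 0.31, adjusted p = 0.00739).
In the BMP list none of 24 and in the FGF and ERK list none of 27 passed; with the block BMP5, a ligand, and SPRY2, a feedback inhibitor of FGF signalling, were higher. SPRY2 was at 103, 90.5 and 80.6 CPM and then at 312, 188 and 161 CPM (log2 fold change 1.27, SE 0.31, adjusted p = 0.0602, and 0.019 with the block). DUSP4, an ERK phosphatase, had all day 3 libraries above day 2 and no call (log2 fold change 1.12, SE 0.39, adjusted p = 0.186).

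Of 25 epithelial junction genes 2 rose (0.661% of all tested genes did): CLDN3, a tight junction claudin, and PKP2, the plakophilin of desmosomes. CLDN3 was at 0.0552, 0.176 and 0.356 CPM and then at 3.26, 2.55 and 2.67 CPM (log2 fold change 3.87, SE 0.71, adjusted p = 0.0213 by edgeR), and PKP2 at 26.5, 28.6 and 15.3 CPM and then at 106, 74.0 and 78.6 CPM (log2 fold change 1.88, SE 0.31, adjusted p = 0.0122). The day 3 libraries lay close together in both. With the block EPCAM, TJP3 and CRB3 were also higher and CLDN10 was lower; EPCAM was at 58.4, 60.4 and 39.9 CPM and then at 160, 164 and 84.1 CPM.
None of 20 basement membrane genes passed, with a median of 0.80. FN1, fibronectin, was at 599.9, 801 and 718 CPM and then at 2443, 1441 and 854 CPM (log2 fold change 1.16, SE 0.44, adjusted p = 0.236). Of 22 genes of collagens and the mesenchymal transition only COL5A2 was higher, with the block; VIM, vimentin, had a log2 fold change of 0.15 (SE 0.32).

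Of 17 hypoxia targets ADM and VEGFA rose, where 0.661% of all tested genes did. ADM, the vasodilator peptide adrenomedullin, was at 5.62, 5.17 and 14.3 CPM and then at 72.7, 24.8 and 62.6 CPM (log2 fold change 2.67, SE 0.49, adjusted p = 0.0213 by edgeR). VEGFA, the vascular growth factor, was at 21.4, 29.3 and 59.0 CPM and then at 287, 121 and 163 CPM (log2 fold change 2.38, SE 0.50, adjusted p = 0.036). The other 15 were not called, the list's median was 0.39, and without replicate 1 of day 3 neither gene passed (adjusted p = 0.101 and 0.146).
Of 21 glycolysis genes SLC2A3, the glucose transporter GLUT3, rose from 1112, 1100 and 1292 CPM to 2355, 5058 and 3487 CPM (log2 fold change 1.64, SE 0.31, adjusted p = 0.0219). No glycolytic enzyme in the list passed, and none of 38 respiratory chain genes did.
Of 22 genes of the ATF4 stress response DDIT3, the factor CHOP, rose from 3.79, 4.67 and 10.2 CPM to 69.4, 24.1 and 56.5 CPM (log2 fold change 3.01, SE 0.55, adjusted p = 0.0213), and TRIB3, which CHOP and ATF4 are known to switch on, was higher with the block. The list's median was 0.67, from 0.21 within replicate 4 to 1.26 within replicate 1.
None of 17 heat shock genes passed, and HSPH1 and HSP90AA1 were lower with the block. HSP90AA1, the inducible HSP90, was at 6497, 5057 and 3080 CPM and then at 1385, 3001 and 1635 CPM (log2 fold change -1.28, SE 0.33, adjusted p = 0.0778, and 0.0294 with the block). The list's median was -0.76 and -0.59 within replicates 1 and 2 and 0.11 within replicate 4. No gene passed among 9 tested metallothionein genes and zinc regulators or among 25 interferon and antigen presentation genes in either fit, and none of 24 cholesterol genes did without the block.

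Days 4 and 1, which are not the days compared but are in the same fit, were used to ask whether the genes called between days 2 and 3 also differed across a wider interval. Day 4 had 2060 genes above day 1 (11.8% of tested genes) and 1554 below it (8.93%). Of the 115 genes higher on day 3, 98 were higher on day 4 than on day 1 (85.2% of the former list and 4.76% of the latter), 1 was lower and 16 were not called. Of the 50 lower genes 37 were lower (74% and 2.38%), none was higher and 13 were not called. The fit took the spread of each gene from all 15 libraries, so both comparisons share that estimate. Without replicate 1 or 2 of day 1 the genes higher on day 4 than day 1 numbered 1290 and 1279, and the genes lower on day 4 than day 1 numbered 841 and 847; without replicate 4 of day 1 and replicate 2 of day 4 the lower genes numbered 1026 and 762.
By mean level, 58 of the 115 higher genes peaked on day 3 and 44 on day 4, while 11 had their highest mean on day 0 and 2 on day 1. FNDC4 was highest on day 3, at 88.0 ± 42.3 CPM (SD, n = 3) against 58.1 ± 25.6 on day 4, and FOXA2 averaged 139 ± 104 CPM, then 157 ± 61.4 CPM a day later. Of the 50 lower genes 22 had their highest mean on day 1, 17 on day 0, 10 on day 2 and 1 on day 4. Higher and lower genes alike were chosen by their levels on days 2 and 3. That choice by itself favours a peak on the higher of those days and hardly allows one on the lower. Peak days were not counted over all tested genes.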

How the data were processed

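Gene levels were measured by bulk polyA RNA-seq in 15 libraries of H9 cells, 3 per day from day 0 to day 4. The reads were processed with TopHat2 2.0.14 on hg19, per the submitters' processing notes. How reads were counted, on which annotation and with or without strand, is not given in the sources used here; antisense or overlapping genes may therefore share counts. The authors deposited whole-number counts per gene symbol and library, not normalized. Of 23398 entries, 52 repeated a symbol, of which 44 identical ones were dropped and 8 summed. All counts were even.

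Libraries were grouped by the day in their names. The main test was the quasi-likelihood F-test of edgeR 4.0.16 (with limma 3.58.1 in R 4.3.3) on the counts as deposited. It used TMM scaling, 17401 genes kept by filterByExpr, and 1 fit over the 15 libraries with a mean for every day. Tried on simulated data that held no replicate effect, unlike the libraries here, the test missed nearly all of the smaller changes put in and many of the larger ones. Genes were called at a Benjamini-Hochberg adjusted p under 0.05. The SE was taken from the test, as the size of the log2 fold change over the root of F.

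Replicate numbers come from the library names. Across genes, the deviations of same-numbered libraries of days 2 and 3 from their day's mean correlated at 0.272, 0.385 and 0.619 for numbers 1, 2 and 4, each positive. The main fit did not use the numbers, so an SE or adjusted p given without mention of the block is unpaired. A further fit took the number as a block. Its calls are given as counts and for many members of the lists, not gene by gene. Libraries with different numbers correlated at -0.496 to 0.243; number 1 of day 2 with number 2 of day 3 was at 0.243 and the reverse at 0.207, close to the value of number 1. Differences within a replicate number used log2(CPM + 0.5).

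The genes named were FOXA2, FNDC4 and CDC6; the 12 largest rises and 12 largest falls among calls that reached a mean of 5 CPM without overlap between days; for each list up to 4 called members or, without a call, the 2 most abundant; and some fixed endoderm, streak and pluripotency genes. Where this names a gene that the text leaves out, its list is described by counts. A few genes are not reported here. The comparison, its genes and the 32 lists were chosen with earlier results of these data known. Alternatives were DESeq2 1.42.0, other scalings and filters, the block, fewer days or libraries, halved counts, and offsets for transcript length and GC content (GENCODE, found for 94.8% of tested genes). Promoters were from RefSeq. Tables were made with Python 3.11.15 and pandas 2.3.3.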

Additional observations from a re-analysis of the deposited data

How the results depend on the processing

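The number of calls depended on the fit more than their direction did. With the replicate block 371 genes were higher and 219 lower on day 3, with DESeq2 619 and 340, and with days 2 and 3 alone in the fit 0 and 0 by edgeR (1985 genes at an unadjusted p under 0.05, against 2471 with all days). Days 2 and 3 alone with the replicate block gave 855 and 680. Leaving out 1 library, with or without the block, gave 4 to 356 higher and 1 to 175 lower genes; the fewest came without replicate 1 of day 2. Chosen after the data were seen, removing each library's length and GC trends gave 449 and 352, the same with the replicate block 718 and 626, and leaving out replicate 4 on days 2 and 3 gave 111 and 33. For genes averaging at least 1 CPM, the deviations of a library's log2 levels from the gene means of all 15 libraries were set against GC content. They correlated at -0.57 to 0.44 over the 6 libraries, positively only in replicate 4. The cause of these changes was not tested. For genes lower on day 4 than day 1 the replicate block gave 2373, removed trends 2614 and both together 3167. For genes higher on day 4 than day 1 both together gave 3206. Leaving out 1 library gave 1279 to 2576 higher and 762 to 2160 lower genes there. Among named genes, 36 of 3036 log2 fold changes under an alternative changed sign, all of genes without a call. HAND1 was at -0.071 with the replicate block, at -0.047 with days 2 and 3 alone and the block, and at -0.11 with removed trends and the block. With days 2 and 3 alone and the replicate block TDGF1 was at -0.051 and NANOG at -0.057. Without replicate 4 TDGF1 was at -0.079, NANOG at -0.47 and SOX2 at -0.41. Leaving out 1 library gave -0.18 to 0.31 for BMP4, -0.31 to 1.08 for CLDN6, -1.46 to 1.12 for GSC, -0.68 to 0.88 for HAND1, -0.033 to 1.06 for KDR, -0.50 to 0.77 for NANOG, -2.07 to 1.01 for POU5F1, -0.30 to 0.65 for SOX2 and -0.40 to 0.51 for TDGF1. The median over all genes moved by over 0.1 only without replicate 4 of day 2, to 0.11. Depth limited genes near 3 counts, at most 0.0458 CPM. All counts were even, so 3 is a nominal floor. Halving the counts, also chosen after the data were seen, gave 135 genes higher and 60 lower on day 3.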

Other observations

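Some genes that are in none of the lists were higher on day 3 and were picked out after their values were seen; they stand for no group. CEBPA, a leucine zipper factor of liver and fat, was at 1.57, 1.96 and 3.01 CPM in replicates 1, 2 and 4 of day 2 and at 18.6, 13.0 and 16.1 CPM on day 3, a log2 fold change of 2.87 (SE 0.55, adjusted p = 0.0228 by edgeR). SLC27A2, a fatty acid transporter and acyl-CoA synthetase, was at 4.81, 6.15 and 3.01 CPM and then at 19.3, 73.4 and 33.3 CPM (log2 fold change 3.17, SE 0.52, adjusted p = 0.0122). SEC14L2, a lipid-binding protein, was at 1.55, 1.88 and 3.10 CPM and then at 16.0, 18.2 and 25.6 CPM (log2 fold change 3.19, SE 0.68). In all 3 genes the days did not overlap. DGAT2, which makes triglycerides, went from 0.979 to 1.25 CPM to 4.96 to 15.5 CPM, and ELF3, an epithelial ETS factor, from 2.36 to 3.92 CPM to 6.19 to 21.6 CPM. GCKR, the regulator of glucokinase, went from 0.0184 to 0.151 CPM to 0.871 to 4.39 CPM.

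The imprinted RNA H19 was at 2.54, 4.82 and 4.96 CPM on day 2 and at 91.1, 14.4 and 13.9 CPM on day 3, a log2 fold change of 3.28 (SE 0.64, adjusted p = 0.024 by edgeR), with replicate 1 of day 3 the highest. EPAS1, which codes for the hypoxia factor HIF-2 alpha, was at 0.405, 0.477 and 0.658 CPM and then at 5.64, 1.32 and 3.301 CPM (log2 fold change 2.74, SE 0.55, adjusted p = 0.0276). CST1, a cystatin, was at 0.939, 1.23 and 1.12 CPM and then at 22.4, 13.4 and 2.45 CPM, and averaged 111 CPM on day 4.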
